A study of Mus musculus with 26 samples.

Results

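Muscle differentiation of C2C12 cells was examined here through 9 genes that build or organise the backbone of the sarcomere, the contractile unit of striated muscle. They are the giant scaffolds Ttn and Neb, the M-band genes Myom1, Myom2 and Myom3, the thick-filament genes Mybpc1, Mybpc2 and Mybph, and Igfn1. These 9 genes were taken by name, with no threshold on a measured value, out of 55341 genes in each count table, and all 9 were found. Together they took between 0.000778% and 0.0907% of the counts of a library.

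A sarcomere is bounded by Z-discs, where actin thin filaments are anchored, and its myosin thick filaments are cross-linked in the middle at the M-band. Titin, the product of Ttn, runs from the Z-disc to the M-band and acts as a molecular spring and a ruler for the thick filament. Nebulin, the product of Neb, lies along the thin filament in skeletal muscle. Myomesins cross-link myosin and titin at the M-band, with Myom1 found broadly in striated muscle, Myom2 in fast and adult muscle and Myom3 in a subset of skeletal fibres. Myosin-binding proteins C sit on the thick filament, with a slow skeletal form from Mybpc1 and a fast skeletal form from Mybpc2, and Mybph encodes the related myosin-binding protein H. Igfn1 encodes an immunoglobulin-like and fibronectin type III domain protein of skeletal muscle that is found at the Z-disc.

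C2C12 cells are mouse myoblasts kept as a line, which stop dividing, turn on muscle genes and fuse into myotubes when serum is withdrawn. SMYD3 is a lysine methyltransferase, and the study asked how lowering or raising it bears on this programme. For the knockdown, C2C12 cells were transfected with the control siRNA siCtrl or with 1 of 2 siRNAs against Smyd3, siSMYD3#1 and siSMYD3#2, and were taken at 0 h, when confluent in growth medium, and at 24 h of differentiation medium, with 3 libraries per condition. For the overexpression, a C2C12 clone carrying HA- and Flag-tagged SMYD3 in the retroviral vector pREV (SMYD3 CL5) was compared with C2C12 cells carrying the empty pREV vector at the same times, with 2 libraries per condition. SMYD3 CL5 is a single clone, so that what sets this clone apart from the vector cells cannot be told apart from SMYD3 itself. In the siRNA libraries, replicates 1 and 2 were extracted with NucleoSpin columns and replicate 3 with TRIzol, and replicate 3 was also from another passage, so that extraction and passage cannot be told apart. The 8 overexpression libraries were extracted with TRIzol.

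The 250 bases upstream of the RefSeq start (GRCm38.p6) were available for 7 of the 9 genes. The 5 below are shown because the results turn on these genes, and capitals mark the sequence motifs found in them on either strand. They are written 5′ to 3′ on the strand of the gene.
Mybph (chr1:134193198-134193447, plus strand): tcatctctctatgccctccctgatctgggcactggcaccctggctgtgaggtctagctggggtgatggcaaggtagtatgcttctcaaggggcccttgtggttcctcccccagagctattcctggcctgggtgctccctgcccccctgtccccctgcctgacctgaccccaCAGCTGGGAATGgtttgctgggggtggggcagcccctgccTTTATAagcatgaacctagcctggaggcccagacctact
Myom3 (chr4:135759465-135759714, plus strand): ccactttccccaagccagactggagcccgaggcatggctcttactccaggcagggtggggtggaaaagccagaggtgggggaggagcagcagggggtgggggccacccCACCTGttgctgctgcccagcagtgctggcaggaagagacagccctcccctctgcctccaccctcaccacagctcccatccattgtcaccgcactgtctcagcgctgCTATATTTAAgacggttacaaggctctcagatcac
Myom1 (chr17:71019307-71019556, plus strand): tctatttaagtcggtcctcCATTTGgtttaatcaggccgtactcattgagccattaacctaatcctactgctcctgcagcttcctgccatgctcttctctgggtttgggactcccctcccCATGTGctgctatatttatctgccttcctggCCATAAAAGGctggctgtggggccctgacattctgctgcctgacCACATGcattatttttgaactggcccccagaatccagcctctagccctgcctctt
Ttn (chr2:76982548-76982797, minus strand): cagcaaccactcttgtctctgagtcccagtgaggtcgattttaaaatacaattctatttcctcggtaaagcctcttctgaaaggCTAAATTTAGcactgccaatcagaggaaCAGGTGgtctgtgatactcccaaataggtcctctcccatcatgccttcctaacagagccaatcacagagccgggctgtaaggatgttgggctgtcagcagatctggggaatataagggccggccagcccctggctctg
Igfn1 (chr1:136006343-136006592, minus strand): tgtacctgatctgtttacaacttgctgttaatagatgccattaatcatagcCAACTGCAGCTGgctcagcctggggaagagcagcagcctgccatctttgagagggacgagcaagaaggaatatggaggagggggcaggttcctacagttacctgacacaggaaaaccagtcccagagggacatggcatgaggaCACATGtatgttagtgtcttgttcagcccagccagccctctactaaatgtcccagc

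The E-box CANNTG, the core bound by MyoD family factors and by many other factors, was in 7 of the 7 windows and in 66.2% of the 32544 RefSeq windows of the same length. Its form CAGCTG, which is a subset of the E-box, was in 3 of 7 (Igfn1, Mybpc1 and Mybph) against 13.1% of all windows. A MEF2 site, the sequence read by the MEF2 factors of muscle, was in 2 (Ttn and Myom3) against 2.89% of all windows, and a CArG box, the sequence read by serum response factor, in 1 (Myom1) against 1.48%. The MCAT element CATTCC, read by TEAD factors, was in 2 (Mybph and Mybpc2) against 12.6%, and a TATA box TATAAA was in Mybph alone of the 7 against 12.3%. These are matches of letters, and no binding was measured. The Myom1 window lies inside the gene span of the GENCODE annotation, in which the gene begins further upstream.

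Depth ran from 14315193 to 60398170 counts in the siRNA libraries and from 21124675 to 67853386 in the overexpression libraries. Smyd3 itself, the targeted gene, was between 17.8 and 21.6 counts scaled to library size (CPM, counts for each 1000000 counts) in siCtrl and between 5.37 and 9.65 CPM in siSMYD3#2, a log2 difference of -1.51 at 24 h (edgeR quasi-likelihood test, adjusted p = 5.06e-05) and of -1.41 at 0 h (adjusted p = 0.000107). In the libraries labelled siSMYD3#1 it was between 15.1 and 19.3 CPM, which did not pass the test at 24 h (log2 difference -0.24, adjusted p = 0.414) or at 0 h (-0.16, adjusted p = 0.785). In the libraries labelled SMYD3 CL5 it was between 16.9 and 27.1 CPM against 16.7 to 19.2 CPM in vector cells, with no call at 24 h (log2 difference 0.36, adjusted p = 0.671) or at 0 h (0.29, adjusted p = 0.593), and the species of the transgene was not given in the sources used here. In these counts, RNA of the target therefore checked the label of siSMYD3#2 and not those of siSMYD3#1 and SMYD3 CL5. The paper followed the target after knockdown by qPCR and protein blots. For the clones, the paper reports the tagged protein by blots and immunofluorescence. Those measurements are not part of these data. Summed over 5 myoblast markers, the levels ran from 217 to 1908 CPM in the siRNA libraries and from 560 to 1598 CPM in the overexpression libraries, with the TRIzol library the lowest in each siRNA condition. Des carried much of that range, with 67.3 to 945 CPM in siCtrl at 0 h. Cdh15 (72.1 to 242 CPM) and Myod1 (6.41 to 31.4 CPM) varied there too. Myf5 stayed between 82.2 and 90.9 CPM and Pax7 between 0.768 and 1.29 CPM. Adipocyte and endothelial markers stayed at or below 1.64 CPM in sum in every library, and leukocyte markers at or below 6.62 CPM.

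Levels below are CPM on library sizes scaled by TMM, a method that equalises the bulk of genes between libraries, and each of the 2 experiments was scaled on its own. A gene was called where the adjusted p from edgeR was under 0.01. Of the 9 genes, 6 had enough counts to be tested in the siRNA experiment (all but Mybpc1, Mybpc2 and Igfn1) and 8 in the overexpression experiment (all but Mybpc2). The libraries came from whole cultures, in which fewer differentiated cells and less RNA per cell cannot be told apart.

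**Figure D1:**
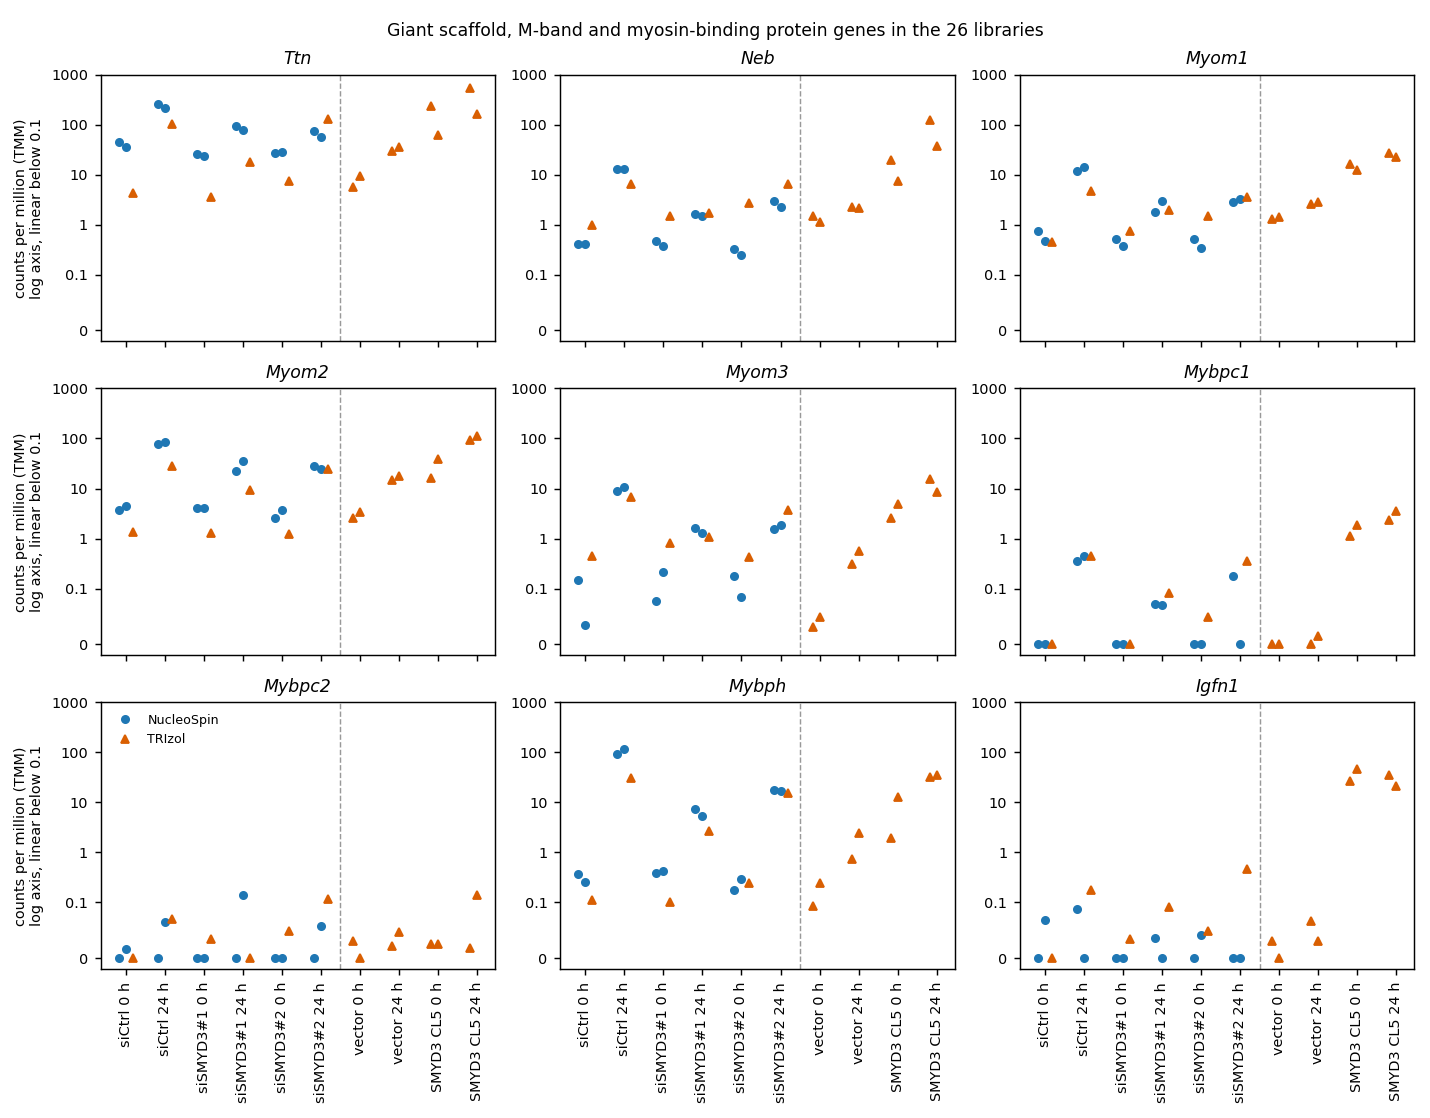
Level of each of the 9 genes in the 26 libraries, in CPM on a log axis that is linear below 0.1. Each point is 1 library, circles are NucleoSpin and triangles TRIzol extractions, and the dashed line parts the siRNA from the overexpression experiment, which were scaled separately. Igfn1 lies between 21.7 and 47.5 CPM in the 4 SMYD3 CL5 libraries and at or below 0.471 CPM in the other 22.

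Differentiation of siCtrl cells was accompanied by a rise of each of the 6 tested genes. The fitted log2 differences ran from 2.98 for Ttn to 8.29 for Mybph, an order that was not the same in both extractions. The question here was how far the sarcomere backbone had been switched on after 24 h in cells with normal SMYD3, and 14.6% of the 15820 tested genes were called higher in this comparison.

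Titin RNA (Ttn, ENSMUSG00000051747, chr2:76703980-76982547, minus strand) was already detected in confluent myoblasts, with 115 to 2107 counts per siCtrl library over 116825 exon bases. It stood at 44.9 and 36.1 CPM in the NucleoSpin libraries and 4.23 CPM in the TRIzol library of siCtrl at 0 h, and at 253, 216 and 103 CPM at 24 h. The 2 times did not overlap, although the TRIzol library was the lowest at both. The means were 28.4 ± 21.4 CPM at 0 h and 190.9 ± 77.8 CPM at 24 h (SD, n = 3), a fitted log2 difference of 2.98 (SE 0.69, 95% interval 1.48 to 4.48, adjusted p = 0.00407). This call was lost, with adjusted p between 0.0104 and 0.0197, without any 1 of the 3 siCtrl 0 h libraries and without siCtrl 24 h replicate 1 or 3.

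Nebulin RNA (Neb, ENSMUSG00000026950, chr2:52136647-52378474, minus strand) began low, with 11 to 27 counts per siCtrl library. It was at 0.402, 0.411 and 0.994 CPM at 0 h and at 13.1, 13.1 and 6.44 CPM at 24 h, a log2 difference of 4.43 (SE 0.62, interval 3.12 to 5.75, adjusted p = 4.52e-05). Here the TRIzol library was the highest at 0 h and the lowest at 24 h, so that the log2 ratio was 5.01 within NucleoSpin and 2.70 within TRIzol. For Ttn the order was the opposite, with 2.53 within NucleoSpin and 4.61 within TRIzol. Ttn thus had the smallest ratio of the 6 genes within NucleoSpin, while within TRIzol its ratio lay above those of Neb, Myom1 (3.39), Myom2 (4.38) and Myom3 (3.96).

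The 3 myomesin genes, whose proteins cross-link the M-band, rose together. Myom1 (ENSMUSG00000024049, chr17:71002633-71126856, plus strand) went from 0.732, 0.480 and 0.442 CPM to 11.7, 14.1 and 4.64 CPM, a log2 difference of 4.20 (SE 0.47, adjusted p = 2.64e-06). Myom2 (ENSMUSG00000031461, chr8:15057653-15133541, plus strand) went from 3.66, 4.46 and 1.36 CPM to 79.1, 83.3 and 28.4 CPM, a log2 difference of 4.29 (SE 0.32, adjusted p = 1.38e-07). Myom3 (ENSMUSG00000037139, chr4:135759715-135815564, plus strand) went from 0.146, 0.0343 and 0.442 CPM to 9.03, 10.8 and 6.90 CPM, a log2 difference of 5.75 (SE 0.59, adjusted p = 1.31e-06). No library of 0 h reached any of 24 h for these 3 genes. Myom2 had the highest CPM of the myomesin genes in every siCtrl library. Myom3 had the highest log2 ratio of them within NucleoSpin (6.78) but not within TRIzol.

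Myosin-binding protein H (Mybph, ENSMUSG00000042451, chr1:134193448-134201232, plus strand) was almost silent at 0 h, at 0.366, 0.257 and 0.11 CPM, and reached 93.1, 116 and 30.7 CPM at 24 h. Its log2 difference was 8.29 (SE 0.37, interval 7.51 to 9.08, adjusted p = 1.84e-10). Of its exon bases, 1162 of 2329 are shared with Adora1 on the opposite strand, and the strand setting of the counting was not given in the sources used here. The other 2 genes of the family were barely detected in siCtrl. Mybpc1 (ENSMUSG00000020061, chr10:88518279-88605152, minus strand) had 0 counts in the 3 libraries at 0 h and 8, 7 and 13 counts at 24 h, at least 4.66-fold higher against a floor of 3 counts per library. Mybpc2 (ENSMUSG00000038670, chr7:44501699-44524656, minus strand) had between 0 and 3 counts in each of the 26 libraries and could not be compared anywhere.

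Per exon kilobase, a rough scaling for genes of different length, Mybph stood highest in siCtrl at 24 h, at 34.4 ± 19.0 CPM per kilobase (SD, n = 3). The length used is that of all annotated exons of a gene and not of the transcripts present, which limits orders and ratios between genes. Myom2 followed at 7.18 ± 3.45, then Ttn at 1.63 ± 0.67, Myom3 at 1.47 ± 0.32, Myom1 at 0.969 ± 0.470 and Neb at 0.409 ± 0.145 CPM per kilobase. Mybph and Myom2 were apart from each other and from the rest in every library, whereas the ranges of neighbours from Ttn down to Neb overlapped. At 0 h the order began with Myom2 at 0.357 ± 0.182 and Ttn at 0.243 ± 0.183 CPM per kilobase, with Mybph behind at 0.105 ± 0.055, and the ranges of these neighbours overlapped. A gene of this group could therefore have few counts per base and still many counts, as with Ttn, whose exons span 116825 bases.

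In the libraries labelled siSMYD3#1, most of these genes lay far below siCtrl at 24 h. Mybph, Neb, Myom3, Myom1 and Myom2 were called lower, which is 5 of the 6 tested, while Ttn was lower in each library but was not called. Of all 15820 genes, 2.94% were called lower in this comparison. As Smyd3 RNA did not pass the test in these libraries, the directions are those of the libraries labelled siSMYD3#1.

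Mybph fell the most, to 7.40, 5.38 and 2.73 CPM (log2 difference -3.87, SE 0.27, interval -4.43 to -3.31, adjusted p = 3.12e-07). Neb stood at 1.67, 1.49 and 1.75 CPM, below each siCtrl library (-2.90, SE 0.57, adjusted p = 0.00377). Myom3 was at 1.63, 1.27 and 1.07 CPM (-2.79, SE 0.48, adjusted p = 0.000953). Neither gene overlapped with siCtrl at 24 h. Before differentiation these cells had Neb at 0.467, 0.368 and 1.52 CPM, a range that overlapped with their own 24 h values, and Myom3 at 0.0778, 0.210 and 0.812 CPM, which did not. Myom1 was at 1.81, 2.97 and 1.93 CPM (-2.20, SE 0.42, adjusted p = 0.00214). Myom2 was at 22.0, 36.1 and 9.41 CPM, and its highest library exceeded the TRIzol library of siCtrl (-1.52, SE 0.28, adjusted p = 0.00215). Within each extraction, Myom2 was lower by much the same amount, with log2 ratios of -1.48 for NucleoSpin and -1.59 for TRIzol. Ttn was at 94.8, 78.1 and 18 CPM (-1.76, SE 0.65, interval -3.18 to -0.33, adjusted p = 0.117).

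Mybpc1 had 6 counts in all in siSMYD3#1 at 24 h against 28 in siCtrl, 5.21-fold lower (95% counting interval 2.12 to 15.4). This interval, like the others given for summed counts, covers counting error only. Leaving out siCtrl 24 h replicate 1 or 2, or siSMYD3#1 24 h replicate 1 or 3, left 2 of the 5 calls, Mybph and Myom3. Of all genes, 262, 235, 251 and 530 were called lower in these fits, against 465 as reported. Without siSMYD3#2 24 h replicate 3, which enters through the shared spread, Ttn was called as well (-1.87, adjusted p = 0.00233), with 508 of all genes called lower. Neb lost its call, with adjusted p between 0.0140 and 0.0212, without siCtrl 24 h replicate 1 or 2 or any siSMYD3#1 24 h library. The 3 fibroblast markers summed to between 20.9 and 50.7 CPM in siSMYD3#1 at 24 h and to between 16.6 and 23.8 CPM in siCtrl. In siSMYD3#2 at 24 h they summed to between 12.5 and 13.3 CPM, below each siCtrl library. That gap came mostly from Col15a1 (mean 2.67 against 8.58 CPM), while Pdgfra (5.62 against 6.48 CPM) and Dpt (4.53 against 5.22 CPM) overlapped with siCtrl. The part of these markers in the result of either siRNA was not tested.

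Knockdown with siSMYD3#2, the siRNA with lower Smyd3 RNA by test in these libraries, gave the same direction for each of the 6 genes but a call for 1, Mybph. Across all genes, 2.04% were called lower. Both siRNAs were compared with the same siCtrl libraries, so that the 2 comparisons are not independent.

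Mybph was at 17.9, 16.6 and 15.1 CPM, a narrow range that lay below each siCtrl library (-2.06, SE 0.24, interval -2.58 to -1.55, adjusted p = 0.000116). Myom3 was at 1.58, 1.85 and 3.69 CPM (-2.02, SE 0.46, adjusted p = 0.0109) and Myom1 at 2.85, 3.29 and 3.53 CPM (-1.63, SE 0.41, adjusted p = 0.0192). These 2 genes did not overlap with siCtrl either, yet missed the threshold. Myom2 was at 28.6, 24.2 and 24.5 CPM (-1.08, SE 0.28, adjusted p = 0.0260) and Neb at 3.03, 2.25 and 6.47 CPM (-1.74, SE 0.53, interval -2.89 to -0.60, adjusted p = 0.0576). Ttn was at 72.9, 57.4 and 126 CPM (-0.66, SE 0.65, interval -2.08 to 0.76, adjusted p = 0.616). In the last 3 genes the groups overlapped, and for Ttn and Neb the TRIzol library of siSMYD3#2 lay above the TRIzol library of siCtrl.

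The difference between siSMYD3#2 and siCtrl was smaller in the TRIzol libraries, which were also of another passage, than in the NucleoSpin libraries for each of the 6 genes. Within NucleoSpin, siSMYD3#2 was below siCtrl for the 6 genes by log2 ratios from -1.62 for Myom2 to -2.60 for Mybph. Within TRIzol, with 1 library each, the log2 ratios were 0.29 for Ttn, 0.01 for Neb, -0.21 for Myom2, -0.40 for Myom1, -0.90 for Myom3 and -1.02 for Mybph. For siSMYD3#1 the ratios were negative in both extractions for the 6 genes, from -1.44 to -4.03 within NucleoSpin and from -1.27 to -3.49 within TRIzol. Fitted on the NucleoSpin libraries alone, in which 5.12% of 15222 genes were called lower with siSMYD3#2 and 6.01% with siSMYD3#1, all 6 genes were called lower with either siRNA. Ttn then differed by -1.85 with siSMYD3#2 (adjusted p = 1.32e-07) and by -1.43 with siSMYD3#1 (adjusted p = 1.07e-06).

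The count of calls with siSMYD3#2 also turned on single libraries. It was 4 without siCtrl 24 h replicate 3, the TRIzol library, when Neb (-2.36, adjusted p = 0.000818), Myom1 (-2.10, adjusted p = 0.000718) and Myom3 (-2.51, adjusted p = 0.00163) passed too. It was 3 without siSMYD3#2 24 h replicate 3, when Ttn (-2.26, adjusted p = 0.00402) and Myom2 (-1.64, adjusted p = 3.78e-05) passed. It was 2 without siCtrl 0 h replicate 2 or 3, siSMYD3#1 0 h replicate 1 or 3, siSMYD3#1 24 h replicate 3 or siSMYD3#2 0 h replicate 3, with Myom3 or, in the last case, Myom1 (-1.55, adjusted p = 0.00431) as the further gene. Of all genes, 324 and 358 were called lower in the fits with 4 and 3 calls, against 323 as reported. In the fits with 2 calls, between 286 and 380 were called lower.

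**Figure D2:**
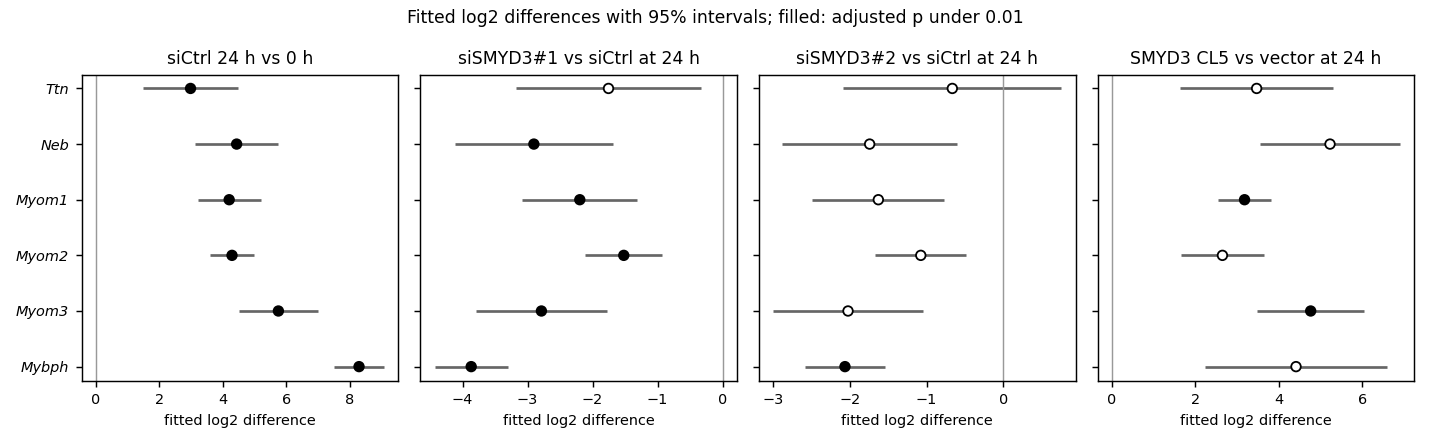
Fitted log2 differences of the 6 genes tested in both experiments, with 95% intervals, in 4 comparisons; each panel has its own horizontal scale. Filled points passed an adjusted p of 0.01, which holds for 6 genes in siCtrl over time, 5 with siSMYD3#1, 1 with siSMYD3#2 and 2 of these 6 in SMYD3 CL5.

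**Figure D3:**
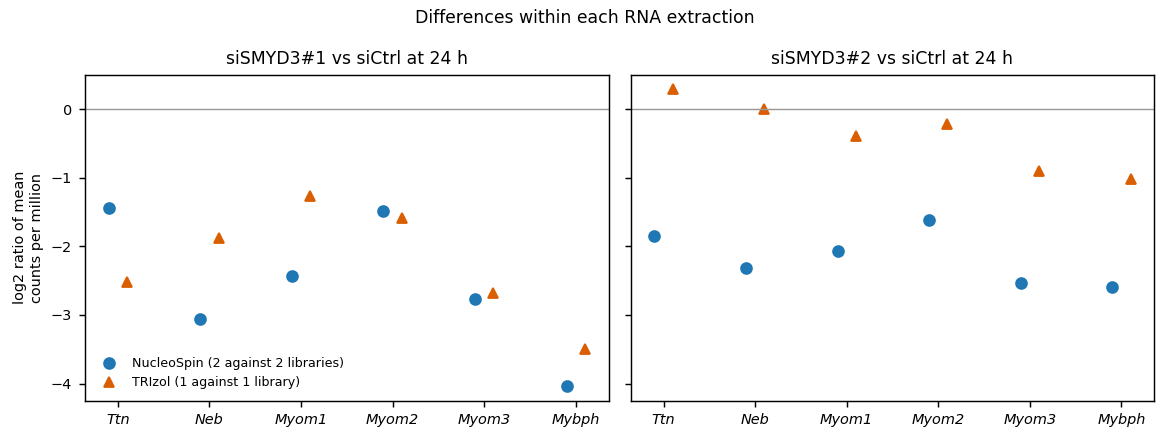
Log2 ratio of mean CPM, siRNA against siCtrl at 24 h, within the NucleoSpin libraries (circles, 2 against 2) and within the TRIzol libraries (triangles, 1 against 1). With siSMYD3#2 the TRIzol ratios lie from -1.02 to 0.29, above each NucleoSpin ratio of the same gene.

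Set directly against each other at 24 h, the siRNAs differed for Mybph, which was lower with siSMYD3#1 (-1.81, SE 0.26, interval -2.36 to -1.25, adjusted p = 0.0005), with each siSMYD3#1 library below each siSMYD3#2 library. Of all genes, 1.31% were called lower in this direction. For the other 5 genes the difference did not pass, and its interval was wide, for example -2.57 to 0.39 for Ttn (-1.09, adjusted p = 0.387) and -2.41 to 0.08 for Neb (-1.16, adjusted p = 0.259). In these libraries Smyd3 RNA was lower with siSMYD3#2, and Mybph differed less from siCtrl with it. SMYD3 protein is not part of these data, and how Mybph relates to the depth of knockdown was not tested. For Ttn the sign turned to 0.38 and for Myom2 to 0.12 without siSMYD3#2 24 h replicate 3.

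Before differentiation the 6 genes showed no call with either siRNA when both extractions were fitted. At 0 h the log2 differences from siCtrl ran from -0.64 (Ttn) to 1.07 (Myom3) with siSMYD3#1 and from -0.34 (Myom2) to 0.63 (Neb) with siSMYD3#2, and each gene overlapped with siCtrl. Over all genes, 1.43% were called in either direction with siSMYD3#1 and 0.531% with siSMYD3#2. With edgeR 0 members had an unadjusted p under 0.05 in either comparison, and DESeq2 called 0. The intervals were wide, such as -0.52 to 2.66 for Myom3 with siSMYD3#1. Within NucleoSpin, both Ttn libraries of either siRNA lay below both of siCtrl (log2 ratios -0.70 with siSMYD3#1 and -0.53 with siSMYD3#2). Neb lay below with siSMYD3#2 (-0.49) and Mybph above with siSMYD3#1 (0.38), and the remaining genes overlapped. Calls on NucleoSpin alone are given with the other settings.

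Whether the siRNA difference at 24 h exceeded that at 0 h was tested as an interaction. No member passed with siSMYD3#1, in which 0.171% of all genes were called lower, although 5 of 6 had an unadjusted p under 0.05. The nearest was Mybph at -4.18 (SE 0.77, adjusted p = 0.0188), followed by Myom3 at -3.86 (SE 0.89, adjusted p = 0.0641), and Ttn was last at -1.11 (SE 0.93, adjusted p = 0.862). DESeq2 called 2 members there, and 100 of all 15820 genes lower. With siSMYD3#2, in which 0.0190% of all genes were called lower, the values ran from -0.37 for Ttn to -2.37 for Neb and Myom3, 4 of 6 had an unadjusted p under 0.05, and the smallest adjusted p was 0.248; DESeq2 called none. Without siCtrl 24 h replicate 3 the count with siSMYD3#1 was 3, and without siSMYD3#2 24 h replicate 3 it was 2. Of all genes, 64 and 40 were then called lower, against 27 as reported.

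The genes still rose in part when SMYD3 was targeted. From 0 h to 24 h, 3 of 6 were called higher with siSMYD3#1, against 12.7% of all genes, namely Mybph (4.11, adjusted p = 2.84e-06), Myom2 (2.82, adjusted p = 1.39e-05) and Myom1 (1.96, adjusted p = 0.00571). With siSMYD3#2 4 of 6 were called higher, against 9.11% of all genes, namely Mybph (6.38, adjusted p = 2.52e-08), Myom2 (3.55, adjusted p = 4.08e-06), Myom3 (3.38, adjusted p = 0.000631) and Myom1 (2.12, adjusted p = 0.00272). Neither giant gene was called by edgeR in these cells when both extractions were fitted, with Ttn at 1.87 (adjusted p = 0.0471) and Neb at 1.14 (interval -0.26 to 2.55, adjusted p = 0.188) for siSMYD3#1, and at 2.61 (adjusted p = 0.0148) and 2.07 (adjusted p = 0.0167) for siSMYD3#2. Among NucleoSpin libraries alone the 6 genes passed with either siRNA, with Ttn at 1.19 (adjusted p = 7.08e-06) and Neb at 3.09 (adjusted p = 1.29e-06) for siSMYD3#2. Of all 15222 genes, 2706 were called higher there with siSMYD3#1 and 1860 with siSMYD3#2. DESeq2 on all libraries also called both for siSMYD3#2 (adjusted p = 0.000319 for Ttn and 0.00326 for Neb), with 1822 of 15820 genes called higher. Myom1 lost its call with siSMYD3#1 without any 1 of siSMYD3#1 0 h replicates 1 and 2 and the siSMYD3#1 24 h libraries (adjusted p from 0.0105 to 0.0275), and with siSMYD3#2 without siSMYD3#2 0 h replicate 1 or 2 or 24 h replicate 3 (adjusted p from 0.0155 to 0.0236). Myom3 passed with siSMYD3#1 (adjusted p from 0.00556 to 0.00642) without siCtrl 24 h replicate 3, siSMYD3#1 0 h replicate 3 or siSMYD3#1 24 h replicate 3, and Ttn (adjusted p = 0.000849) without siSMYD3#2 24 h replicate 3. With siSMYD3#2, Ttn passed without siSMYD3#2 24 h replicate 2 (adjusted p = 0.00655), and Neb without siCtrl 24 h replicate 3 (adjusted p = 0.000608) or siSMYD3#2 0 h replicate 3 (adjusted p = 0.000723). The count for siSMYD3#1 was 2 without siSMYD3#1 0 h replicate 1 or 2 or 24 h replicate 1 or 2. In these fits 1228, 1316, 1299 and 1320 of all genes were called higher, against 2012 as reported.

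In vector cells none of the 8 tested members passed over 24 h. Both 24 h libraries lay above both 0 h libraries for 6 of them, all but Mybpc1 and Igfn1. How many of all genes did so was not counted. Ttn went from 5.65 and 9.54 CPM to 29.2 and 35.4 CPM, and Myom2 from 2.54 and 3.43 CPM to 14.8 and 17.9 CPM. Mybph went from 0.0942 and 0.243 CPM to 0.754 and 2.39 CPM. With edgeR, 0 of 8 members and 0% of the 17835 genes passed in vector cells, while 5 members and 1256 genes had an unadjusted p under 0.05. DESeq2 called 1 member and 119 genes. Myom3, with 3 counts in all at 0 h, had 51 at 24 h, 11.2-fold higher (counting interval 3.64 to 56.3). Without either SMYD3 CL5 0 h library, which share the estimate of the spread, Myom2 was called in vector cells (2.44 and 2.45, adjusted p = 0.00534 and 0.00525).

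The 8 tested genes had higher fitted levels in SMYD3 CL5 than in vector cells, and did so before differentiation. At 0 h and at 24 h alike, Igfn1, Mybpc1, Myom3 and Myom1 were called higher, against 0.376% of all genes called higher at 24 h and 0.465% at 0 h. Igfn1 and Mybpc1, with at most 3 counts in any vector library, passed the filter on low counts only through the SMYD3 CL5 libraries in which they were high. Their calls, and the counts of called members that hold them, therefore support nothing by themselves, and both genes are given by their counts. The other 4 did not pass at either time. For the tested genes apart from Igfn1 and Mybpc1, both SMYD3 CL5 libraries lay above both vector libraries at both times. How many of all genes did so was not counted. As Smyd3 counts did not differ by test, these directions are those of the libraries labelled SMYD3 CL5. The 2 times share no libraries, but both compare the same clone.

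Igfn1 (ENSMUSG00000051985, chr1:135953578-136006342, minus strand) showed the widest gap. It had 1050 and 1855 counts in SMYD3 CL5 at 0 h and 1965 and 471 at 24 h, or 26.5, 47.5, 34.9 and 21.7 CPM. In vector cells it had 1 and 0 counts at 0 h and 3 and 2 at 24 h. That was 2694-fold higher in summed counts at 0 h (counting interval 483 to 106429) and 689-fold higher at 24 h (295 to 2123). In the 18 siRNA libraries it had between 0 and 12 counts, with the 12 in siSMYD3#2 24 h replicate 3 and no more than 5 in any siCtrl library. In siCtrl no rise of Igfn1 over 24 h was detectable at these depths, and in SMYD3 CL5 its change over time did not pass the test (log2 difference -0.39, SE 0.40, interval -1.33 to 0.56, adjusted p = 0.903), a value that became 0.088 without SMYD3 CL5 0 h replicate 2.

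Mybpc1, the slow myosin-binding protein C, followed the same split. It had 45 and 72 counts in SMYD3 CL5 at 0 h and 134 and 76 at 24 h, or 1.14, 1.84, 2.38 and 3.50 CPM, against 0 counts in vector cells at 0 h and 0 and 1 at 24 h. It was at least 17.8-fold higher at 0 h against a floor of 3 counts per library and 297-fold higher in summed counts at 24 h (counting interval 52.7 to 11778). It was also detected in differentiated siCtrl cells, at 0.351 to 0.457 CPM. Of its exon bases, 252 of 4527 are shared with a gene on the opposite strand.

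Among the myomesin genes, Myom1 had the tightest values, 16.1 and 12.3 CPM at 0 h and 26.6 and 22.1 CPM at 24 h, against 1.29 and 1.41 CPM and 2.53 and 2.85 CPM in vector cells. Its log2 difference was 3.39 at 0 h (SE 0.28, adjusted p = 0.00171) and 3.18 at 24 h (SE 0.27, adjusted p = 0.00183). Myom3 was at 2.60 and 4.99 CPM at 0 h, 92.1-fold higher in summed counts (counting interval 31.2 to 449, adjusted p = 0.00498), and at 15.5 and 8.70 CPM at 24 h against 0.310 and 0.568 CPM (log2 difference 4.76, SE 0.55, adjusted p = 0.00581). Myom2 was at 16.1 and 39.4 CPM at 0 h and at 91.7 and 113 CPM at 24 h, with log2 differences of 3.21 (adjusted p = 0.0112) and 2.65 (adjusted p = 0.0203) that missed the threshold. Myom1 in confluent SMYD3 CL5 cells stood beside the 4.64 to 14.1 CPM of siCtrl cells at 24 h, on scales set separately in the 2 experiments.

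Both giant genes varied widely between the 2 libraries of the clone. Ttn was at 238 and 60.7 CPM at 0 h and at 549 and 164 CPM at 24 h, with log2 differences from vector of 4.30 (interval 2.37 to 6.22, adjusted p = 0.0353) and 3.46 (interval 1.63 to 5.30, adjusted p = 0.0654). Neb was at 19.6 and 7.58 CPM at 0 h and at 126 and 37.3 CPM at 24 h, against 1.48 and 1.14 CPM and 2.22 and 2.15 CPM in vector cells (3.38, adjusted p = 0.0412, and 5.22, adjusted p = 0.0114). The SMYD3 CL5 replicate 1 libraries were the higher for both genes at both times. Mybph was at 1.92 and 12.7 CPM at 0 h, where replicate 2 was the higher, and at 32.4 and 35.4 CPM at 24 h (5.36, adjusted p = 0.0435, and 4.41, adjusted p = 0.0537). The lack of a call for these genes does not show that they were unchanged.

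Calls in this experiment depended on single libraries. Each library left out leaves 1 in its condition. Fewer members were called at 24 h and at 0 h without any 1 of the vector or the SMYD3 CL5 24 h libraries. More were called at both times without either SMYD3 CL5 0 h library. In each case the number of all genes called higher moved the same way, so that these shifts were not particular to the members. With 1 library left in a condition, that library was taken to vary like the other conditions. DESeq2 called 8 of 8 at both times, and over all 17835 genes it called 441 higher at 24 h and 625 at 0 h. The 8 include Igfn1 and Mybpc1, whose calls support nothing by themselves. Fibroblast markers summed to 34.8 and 35.8 CPM in vector cells at 24 h against 22.0 and 22.2 CPM in SMYD3 CL5, and to between 7.56 and 30.9 CPM in SMYD3 CL5 at 0 h against 11.3 and 15.0 CPM in vector cells. The markers did not move together at 24 h. Mean Dpt was 0.704 CPM in SMYD3 CL5 against 18.9 CPM in vector cells and Col15a1 0.101 against 0.408 CPM, while Pdgfra was 21.3 against 16.0 CPM.

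Over time within the clone, no member was called, and the fitted difference was above 0 for 7 of the 8 and below 0 for Igfn1. With edgeR 0 of 8 members and 0% of genes passed from 0 h to 24 h in SMYD3 CL5, and 5 members and 1137 genes had an unadjusted p under 0.05. DESeq2 called 2 members and 109 genes. Neb had the highest fitted difference (2.59, SE 0.63, adjusted p = 0.453), and without SMYD3 CL5 0 h replicate 1 Myom2 was called (1.36, adjusted p = 0.00951). The difference in time course between SMYD3 CL5 and vector cells, tested as an interaction, passed for 0 of 8 members and 0% of genes, with 0 members and 312 genes at an unadjusted p under 0.05 and 0 members called by DESeq2. For the 5 members with more than 3 counts in some library of each condition, its values ran from -0.95 for Mybph (interval -4.09 to 2.20) to 1.85 for Neb (interval -0.24 to 3.93). Per exon kilobase, the clone at 24 h was led by Mybph at 14.5 ± 0.91 and Myom2 at 11.6 ± 1.71 CPM per kilobase (SD, n = 2), as siCtrl was. Igfn1 came next at 3.14 ± 1.04 CPM per kilobase, and at 0 h Igfn1 was first at 4.11 ± 1.65, where the ranges of neighbours overlapped.

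The ratio of the 2 giant scaffolds varied between conditions and between extractions. Per exon kilobase, titin RNA exceeded nebulin RNA by 25.4 and 19.98 times in the NucleoSpin libraries of siCtrl at 0 h and by 4.40 and 3.75 times at 24 h. In siSMYD3#1 the ratio was 12.8 and 14.6 at 0 h and was still 12.9 and 11.96 at 24 h. In siSMYD3#2 it was 19.1 and 25.6 at 0 h and 5.47 and 5.80 at 24 h. At 0 h these ratios rest on few Neb counts, 11 and 24 in siCtrl, 12 and 7 in siSMYD3#1 and 15 and 6 in siSMYD3#2. With that limit, the NucleoSpin ratio came down during differentiation in siCtrl and in siSMYD3#2 but not in siSMYD3#1. The TRIzol libraries did not share this, with ratios of 0.969, 0.531 and 0.623 at 0 h and of 3.66, 2.34 and 4.44 at 24 h in siCtrl, siSMYD3#1 and siSMYD3#2. In vector cells it was 0.871 and 1.90 at 0 h and 2.999 and 3.75 at 24 h, and in SMYD3 CL5 it was 2.77 and 1.82 at 0 h and 0.994 and 1.00 at 24 h. These ratios were not tested.

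**Figure D4:**
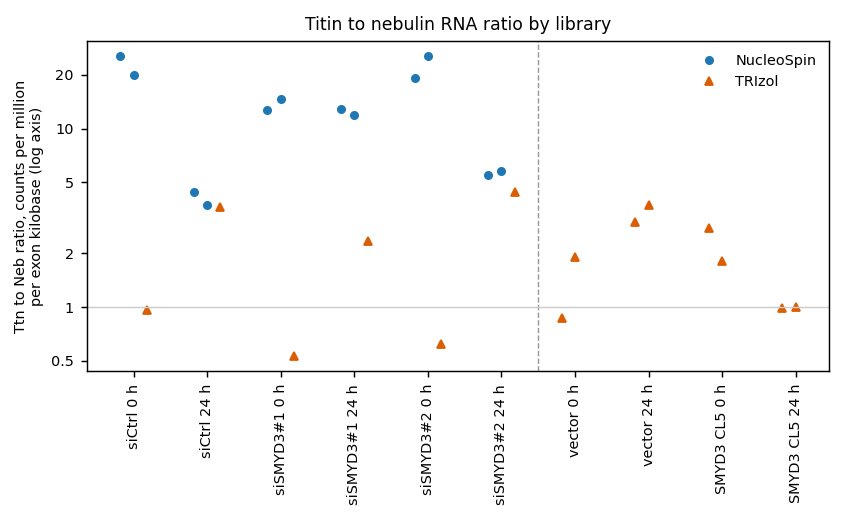
Ratio of Ttn to Neb, each in CPM per exon kilobase, in the 26 libraries on a log axis; circles are NucleoSpin and triangles TRIzol extractions, and the dashed line parts the 2 experiments. At 0 h the siRNA libraries lie between 12.8 and 25.6 in NucleoSpin and between 0.531 and 0.969 in TRIzol.

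Another balance was that of Mybph to Myom1. Per exon kilobase it was 35.9, 37.0 and 29.7 in siCtrl at 24 h and 18.3, 8.13 and 6.34 in siSMYD3#1, with no overlap. In siSMYD3#2 it was 28.3, 22.7 and 19.3, also below each siCtrl library. In SMYD3 CL5 at 24 h it was 5.47 and 7.20, above the 1.34 and 3.77 of vector cells at the same time. This ratio was not tested either.

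The partners of these genes were followed as lists. Among 17 tested genes of the 18 on the nebulin and thin-filament list, 16 rose and 0 fell in siCtrl over 24 h (median log2 difference 4.58, against 0.0269 for all genes), led by the cardiac and skeletal actins Actc1 (7.70, adjusted p = 1.53e-07) and Acta1 (7.31, adjusted p = 4.30e-05). With siSMYD3#1 at 24 h 10 of the 17 fell and 0 rose (median -1.84), with Actc1 at -3.77 and Acta1 at -3.75. With siSMYD3#2 10 fell and 0 rose as well (median -1.62). In SMYD3 CL5 4 of 18 were called higher at 24 h (median 3.85) and 3 at 0 h (median 3.85), among them Lmod2, a leiomodin that lengthens thin filaments (5.81, adjusted p = 0.00856, at 24 h).

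Of the list of M-band, thick-filament and Igfn1 partners, 10 of 15 were tested in the siRNA experiment. In siCtrl 8 rose and 1 fell (median 5.5), with embryonic myosin Myh3 at 9.57 and muscle creatine kinase Ckm, an enzyme bound at the M-band, at 9.53. The one that fell was Hsp90aa1, the chaperone that works with Unc45b in folding myosin (-1.02, adjusted p = 3.31e-07), in a comparison where 14.8% of all genes were called lower. With siSMYD3#1 6 fell and 0 rose (median -2.53), and with siSMYD3#2 6 fell and 0 rose (median -2.11). In SMYD3 CL5 2 of 12 were called higher at 24 h (median 4.64), one being the slow myosin Myh7 (7.97, adjusted p = 0.00103), and 3 at 0 h (median 4.73).

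Of the tested titin partners, 6 of 11 rose and 0 fell in siCtrl (median 0.52), among them Trim55, a ubiquitin ligase of the MuRF family (1.67, adjusted p = 0.00162). With siSMYD3#1 3 fell and 1 rose (median -0.21), and with siSMYD3#2 2 fell and 1 rose (median -0.33). The falling genes included Trim54, of the same family (-1.70, adjusted p = 2.80e-05, and -1.45, adjusted p = 0.000322), and the rising one was in both cases Fhl2, a LIM-domain protein (0.67, adjusted p = 3.03e-05, and 0.53, adjusted p = 0.00052), where 2.91% and 1.66% of all genes were called higher. In SMYD3 CL5 2 of 14 were called higher at each time (medians 0.43 at 24 h and 0.49 at 0 h), and Trim63, also of that family, did not pass at 24 h (5.46, adjusted p = 0.0111).

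Z-disc genes rose in 9 of 11 cases in siCtrl (median 1.61), with Csrp3, a muscle LIM protein, at 3.56, and few were called otherwise: 1 fell with siSMYD3#1 (median -0.65), 2 fell with siSMYD3#2 (median -0.61), and 1 of 13 at 24 h and 2 of 13 at 0 h were called higher in SMYD3 CL5 (medians 1.77 and 2.67). Of 9 myogenic factors, 5 rose in siCtrl (median 0.48), and Myog, which encodes myogenin, led them (7.25, adjusted p = 8.45e-09). With siSMYD3#1 3 fell (median -0.41), Myog by 3.59 on the log2 scale (adjusted p = 5.40e-06), and with siSMYD3#2 2 fell (median -0.68), with Myog at -1.81 (adjusted p = 0.00125). In SMYD3 CL5 Myog was the 1 called higher at 0 h (6.86, adjusted p = 0.00885), and at 24 h none passed (Myog 3.82, adjusted p = 0.0376; medians 0.15 at 0 h and 0.49 at 24 h). Beside these lists, the medians over the 6 tested members were 4.36 for siCtrl over time and -2.49 and -1.68 for siSMYD3#1 and siSMYD3#2 at 24 h, and the median over all genes lay between -0.0255 and 0.0269 in these and the SMYD3 CL5 comparisons.

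Across the 26 libraries, the genes whose log2(CPM + 1) followed the mean profile of the 6 members most closely, of 11228 candidates, were Klhl41 (Pearson r = 0.986), which encodes a kelch protein of the thin filament and nebulin, the fast myosin light chain gene Mylpf (0.978), and 3 genes of calcium handling in the sarcoplasmic reticulum, Hrc (0.975), Casq2 (0.975) and Ryr1 (0.969). The members themselves, which enter that profile, ran from 0.889 (Ttn) to 0.964 (Myom3). These values describe libraries that share conditions, extraction and scaling, and they carry no test. Ryr1, the calcium release channel, fell by 3.07 on the log2 scale with siSMYD3#1 (adjusted p = 7.05e-08) and by 2.00 with siSMYD3#2 (adjusted p = 1.56e-05) at 24 h. Among the members in the 18 siRNA libraries, the pair Ttn and Neb was the least alike (r = 0.607) and Myom1 and Mybph the most alike (r = 0.962).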

How the data were processed

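Polyadenylated RNA of 26 C2C12 cultures was sequenced from TruSeq Stranded libraries. The authors checked reads with FastQC 0.11.5, aligned them to GRCm38 with HISAT2 2.1.0 and counted them per gene with featureCounts (Subread 1.6.3). They deposited raw counts per library, with no normalization. The annotation release, strand setting and treatment of reads with several matches were not given in the sources used here, and reads of related or overlapping genes may have been split or shared. Groups came from the sample labels, and replicate numbers, extraction and passage from the sample list of the study. The methods call the replicates biological.

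Symbols, positions and exon lengths came from GENCODE M21, which holds 54495 of the 55341 identifiers (846 were not matched), and promoter sequences from RefSeq, which had 7 of the 9 genes. No 2 libraries held identical values (0 pairs).

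From the deposited counts, each experiment was filtered with filterByExpr, scaled by TMM and fitted with edgeR 4.0.16 (R 4.3.3) by the robust quasi-likelihood test, with extraction in the siRNA model. P-values were adjusted by Benjamini-Hochberg over all 15820 (siRNA) or 17835 (overexpression) tested genes, and the threshold was 0.01 as in the study. Standard errors are the log2 difference divided by the square root of F. Where each library of a group held at most 3 counts, ratios of summed counts with exact 95% intervals, or bounds against a floor of 3 counts, replaced fitted differences. The code was tested on simulated counts. Alternatives were DESeq2 1.42.0, its size factors in edgeR, no filter on low counts, a threshold of 0.05, no extraction term, NucleoSpin libraries alone, all 26 libraries in one fit, a replicate block and each library left out.

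In the siRNA libraries, deviations from the group means correlated at 0.415 to 0.828 for the same-numbered pairs compared. Replicate 3 was the TRIzol library in each condition, so that these values hold the difference between extractions. Within NucleoSpin alone the correlations were 0.016 to 0.064, so that numbers 1 and 2 showed little pairing there.

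The members and lists were chosen with earlier results of these data known. Named were the 9 members, Smyd3, up to 4 genes per list (the 2 with the largest change and any that moved against its list) and the 5 genes with the most similar profile among those with at least 100 counts on average. A gene that this rule names is not reported here. Markers were Myod1, Myf5, Cdh15, Des and Pax7 (myoblast), Pdgfra, Dpt and Col15a1 (fibroblast), Adipoq, Plin1 and Fabp4 (adipocyte), Pecam1 and Cdh5 (endothelial), and Ptprc and Cd68 (leukocyte).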

Additional observations from a re-analysis of the deposited data

Results flagged for a closer look

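Mybph differed between the 2 siRNAs against Smyd3 at 24 h, lower with siSMYD3#1 than with siSMYD3#2 by a log2 difference of -1.81 (SE 0.26, adjusted p = 0.0005, edgeR), with 7.40, 5.38 and 2.73 CPM against 17.9, 16.6 and 15.1 CPM. Each of the 3 libraries of siSMYD3#1 lay below each of siSMYD3#2. On the NucleoSpin libraries alone the value was -1.39 (adjusted p = 2.13e-05). None of the other 5 tested members passed, and Mybpc1, Mybpc2 and Igfn1 were not tested. Igfn1 had 12 counts in all with siSMYD3#2, all in the TRIzol library, against 4 with siSMYD3#1, 3.76-fold higher in summed counts (counting interval 1.14 to 16.0).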

How the results depend on the processing

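Counts of members called moved with the processing as follows, and the cause was not tested. For siSMYD3#1 over time (3 as reported) the count was 5 at a threshold of 0.05 and 6 with no filter on low counts or with NucleoSpin alone. For siSMYD3#2 over time (4) it was 2 without extraction in the model and 6, with Ttn and Neb added, at 0.05, with DESeq2, with no filter or with NucleoSpin alone. Genes called higher with siSMYD3#1 were 3098 at 0.05, 2327 with no filter and 2706 with NucleoSpin alone, against 2012 as reported. With siSMYD3#2 they were 294 without extraction, 2489 at 0.05, 1822 with DESeq2, 1887 with no filter and 1860 with NucleoSpin alone, against 1441. For siCtrl over time (6) the count of members was 5 without extraction, when Ttn ceased to pass (adjusted p = 0.0383) and 748 genes were called higher. For siSMYD3#1 against siCtrl at 24 h (5) it was 1 without extraction, when 57 genes were called lower. For siSMYD3#2 against siCtrl at 24 h (1) it was 4 at 0.05 or with DESeq2, 6 with no filter or with NucleoSpin alone, and 0 without extraction or with all 26 libraries in one fit. Genes called lower there were 742 at 0.05, 531 with DESeq2, 634 with no filter, 779 with NucleoSpin alone, 12 without extraction and 61 with all 26 libraries, against 323 as reported. At 0 h siSMYD3#1 (0) gave 1 member with no filter, of 527 genes called, and 1 with NucleoSpin alone, of 462 genes called. Between the siRNAs (1) the count of members was 3 with no filter and 0 without extraction or with all 26 libraries, with 1092, 25 and 97 genes called. The interaction of siSMYD3#1 (0) gave 1 at 0.05, 2 with DESeq2 or NucleoSpin alone and 6 with no filter, and that of siSMYD3#2 (0) gave 4 with no filter and 1 with NucleoSpin alone. Genes called lower in the first were 80 at 0.05, 100 with DESeq2, 105 with NucleoSpin alone and 175 with no filter, and in the second 132 with no filter and 130 with NucleoSpin alone. Vector cells over time (0) gave 1 member with DESeq2 or all 26 libraries and 4 with no filter, and SMYD3 CL5 over time (0) gave 2 with DESeq2 and 3 with no filter. Genes called higher in vector cells were 90, 118 and 150 under these settings, and in SMYD3 CL5 77 and 137. SMYD3 CL5 against vector gave 8 members at 24 h (4) with DESeq2, no filter or all 26 libraries, and 8 at 0 h (4) under these and at 0.05. Over all genes, 441, 537 and 629 were called higher at 24 h under these settings, and 625, 740 and 1180 at 0 h, with 390 at 0.05. With no filter, edgeR gave Ttn with siSMYD3#1 over time much the same difference as reported (1.86 against 1.87). Its adjusted p was 5.05e-49 against 0.0471, so that calls with no filter, also counted as newly passing below, are weak support.

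With 1 library left out, the counts ranged from 5 to 7 for siCtrl, 2 to 4 for siSMYD3#1 and 3 to 6 for siSMYD3#2 over time. Of all genes, 1721 to 2422, 1228 to 2232 and 871 to 1622 were called higher there. The counts ranged from 2 to 6 for siSMYD3#1 and 1 to 4 for siSMYD3#2 at 24 h, and from 0 to 3 for the interaction of siSMYD3#1. Of all genes, 235 to 530, 98 to 380 and 15 to 64 were called lower there. In the overexpression experiment the counts moved too, and there a library left out leaves 1 in its condition. Of 548 gene values under other settings 451 kept their direction and side of the threshold, 83 passed newly, 12 ceased to pass and 2 changed sign, and of 904 with 1 library left out these numbers were 803, 36, 62 and 3. The changes of sign were in siSMYD3#1 against siSMYD3#2 at 24 h, for Ttn (0.42 with NucleoSpin alone, and from -1.68 to 0.38 with 1 library left out) and Myom2 (0.12 with NucleoSpin alone, and from -0.73 to 0.12), and in SMYD3 CL5 over time for Igfn1 (from -0.77 to 0.088 with 1 library left out).

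The replicate block changed no call of a member in the siRNA experiment. In the overexpression experiment, same-numbered libraries of SMYD3 CL5 and vector cells correlated at -0.097 at 24 h and 0.148 at 0 h. Between the 2 times of SMYD3 CL5 they correlated at 0.488, and what same-numbered libraries have in common was not tested. With the block, 7 members were called at 24 h, adding Neb (4.97, adjusted p = 0.00248), Myom2 (2.64, adjusted p = 0.00498) and Mybph (4.78, adjusted p = 0.00746). At 0 h 5 were called, adding Myom2 (3.14, adjusted p = 0.00313). Of all 17835 genes, the block called 106 higher at 24 h and 118 at 0 h. Counts were too low to test Mybpc2 in either experiment and Mybpc1 and Igfn1 in the siRNA experiment. The overexpression experiment had 2 libraries per condition and a common dispersion of 0.0903, against 3 and 0.0159 in the siRNA experiment.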
